A study of Mus musculus with 2 samples.

Results

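The genes described here are 38 markers and regulators of the blood vessel wall and of the connective tissue around it. They were chosen by symbol and comprise 18 endothelial genes, 11 genes of mural cells (pericytes and smooth muscle), 7 fibroblast genes and 2 growth factor ligands. They are 38 of the 55536 genes in the deposited tables, all protein-coding, and lie on 18 chromosomes. Total RNA of tissue labelled layer of hippocampus was sequenced from male B6CASTF1/J mice, a cross of C57BL/6J with CAST/EiJ, at postnatal day 14. A single group of 2 libraries, labelled biological replicates 1 and 2, was made from 300 ng of RNA each with ERCC spike-ins, which are synthetic RNAs added in known amounts. Each label lists 3 males of its own without saying how their RNA was combined, so a library need not stand for 1 animal. The labels name no treatment and no second condition, so every difference below is one between the 2 replicates. The gene tables held 29144892 counts in replicate 1 and 31755578 in replicate 2, and the 38 genes took 0.103% and 0.104% of them.

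Brain capillaries are lined by endothelial cells whose tight junctions and transporters form the blood-brain barrier. VEGF made by surrounding cells acts on the endothelial receptors Kdr and Flt1, and angiopoietins act on Tek together with its relative Tie1. PDGF-B released by endothelium recruits pericytes through their receptor Pdgfrb, while smooth muscle wraps arterioles and fibroblasts lie in the meninges and around larger vessels. In the second postnatal week the vessels of the rodent forebrain are still growing in density. RNA was taken from tissue, not from sorted cells, so fewer cells of a type and less RNA per cell cannot be told apart.

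Levels are given as TPM, a share of the library's transcripts that divides by transcript length, so that genes can be compared with each other. Detection required 1 TPM or more in each of the 2 libraries. Of the 38 genes 37 were detected, beside 26.8% of all genes. The exception was Ogn, which encodes the small proteoglycan osteoglycin, at 0.62 TPM in replicate 1 and 0.49 TPM in replicate 2. The endothelial genes had a median of 11.6 ± 0.074 TPM, the mural genes 4.36 ± 1.4 TPM and the fibroblast genes 12.1 ± 1.4 TPM. These errors are the SD of the 2 library medians. Of the 38 genes, 14 lay above 13.2 TPM, the median of all detected genes, and 18 reached 10 TPM. Those 18 were 10 endothelial genes, 2 mural genes, 4 fibroblast genes and both ligands. The highest was Tjp1, at 52.8 TPM in replicate 1 and 51.6 TPM in replicate 2. The next was the pericyte gene Rgs5 at 43.9 TPM and 45.95 TPM. Tjp1-205, of 551 bases, held 23.4% of the Tjp1 TPM in replicate 1 and 27.1% in replicate 2. It had 113 and 136 of the gene's 3851 and 3892 counts, so the Tjp1 level rests in part on short transcripts. The authors also deposited a second quantification in kallisto layout, beside the RSEM layout used here. There the order differed, with means of 60.7 TPM for Rgs5, 58.4 TPM for Vegfa and 55.5 TPM for Tjp1.

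**Figure D1:**
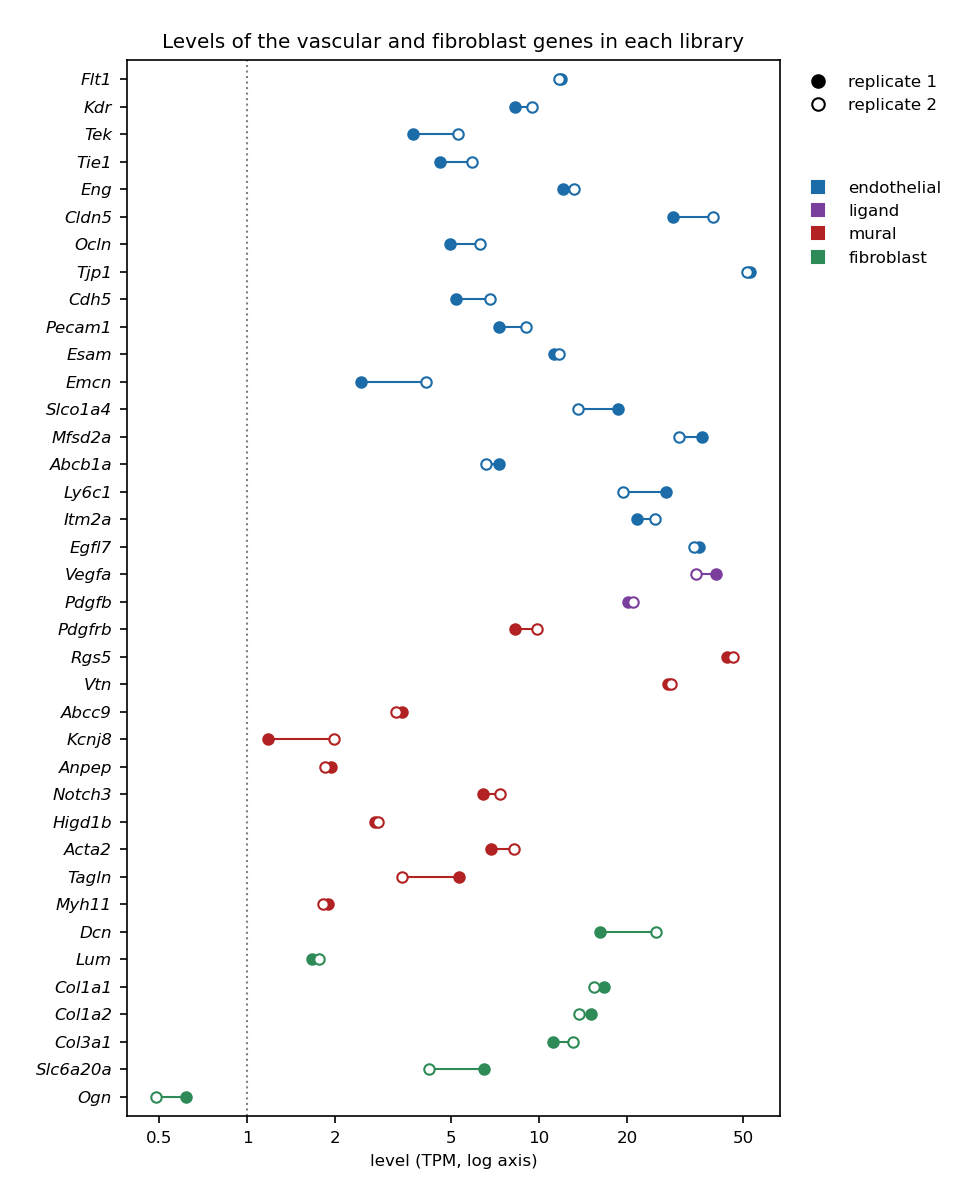
Level of each of the 38 genes in TPM (log axis), with replicate 1 as filled and replicate 2 as open circles joined by a line, coloured by class. The dotted line marks the detection level of 1 TPM. Ogn alone lies below it, and Tjp1 and Rgs5 lie farthest to the right.

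Replicates were compared on counts scaled by library size, as the log2 ratio of replicate 1 over replicate 2 with a 95% counting interval. The exact binomial test with Benjamini-Hochberg adjustment ran over the 18332 genes whose counts averaged 10 or more. It compares these 2 libraries beyond counting error and has no replicate check, since there is 1 library on each side. All 38 genes were tested. Of these, 8 were higher in replicate 1, beside 10.2% of all genes tested, 9 were higher in replicate 2, beside 12.5% of all genes tested, and 21 passed in neither direction. The endothelial genes had 4 higher in replicate 1 and 6 higher in replicate 2 (median log2 ratio -0.14). Of the 11 mural genes, 0 were higher in replicate 1 and 2 were higher in replicate 2 (median -0.04). Fibroblast genes had 3 higher in replicate 1 and 1 in replicate 2 (median 0.14). The median over all genes tested was -0.002. With an assumed coefficient of variation of 0.1 between replicates, edgeR's exact test called 0 of the 38 genes in either direction. Over all genes it called 0.655% as higher in replicate 1 and 0.289% as higher in replicate 2. Scaled by spike-ins, 4 of the 38 genes were higher in replicate 1 and 15 in replicate 2, beside 5.45% and 30.1% of all genes under that scaling. Tjp1, Vegfa, Col1a1 and Col1a2 then no longer passed. Differences reached a fold of more than 1.5 for 2 genes, Kcnj8 and Slc6a20a.

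**Figure D2:**
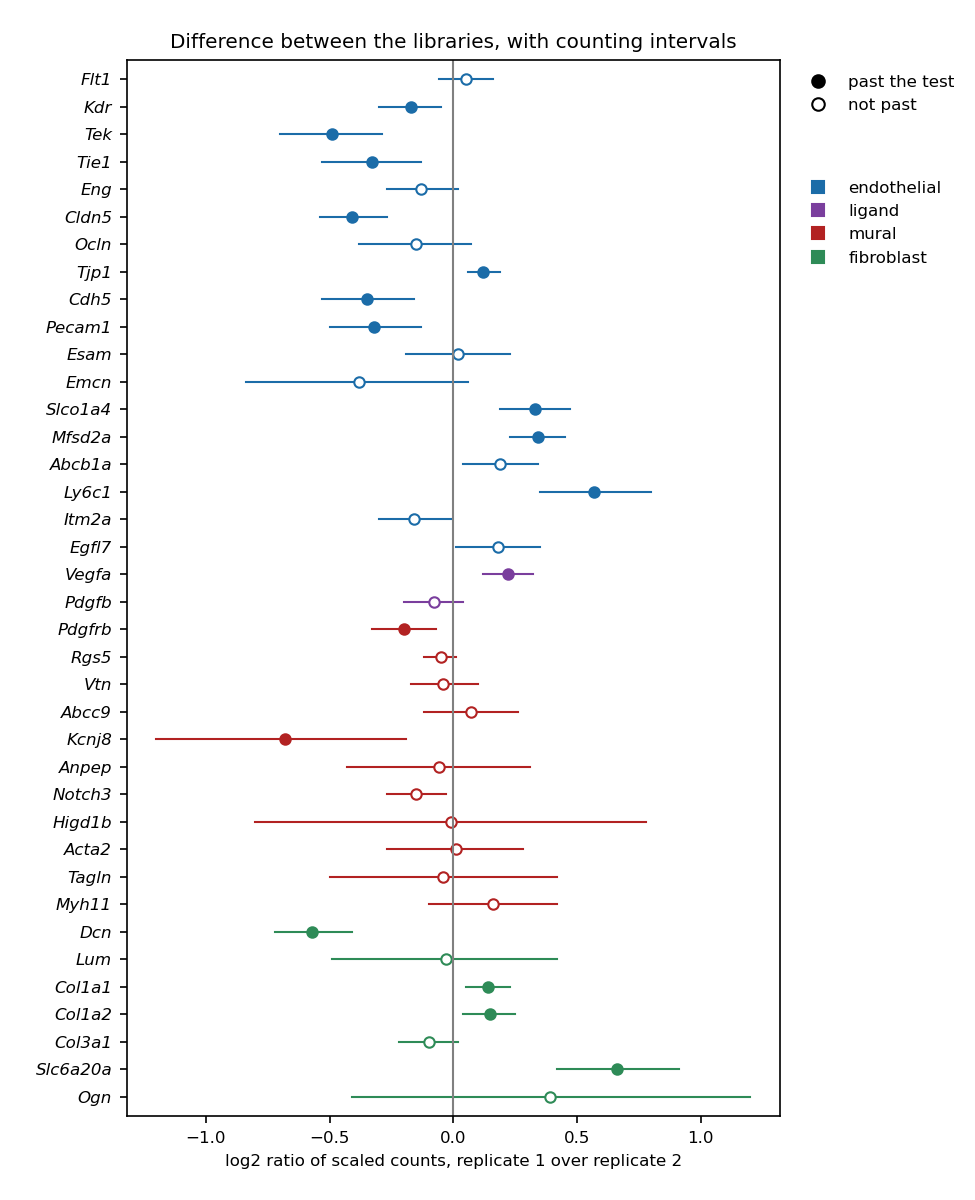
Log2 ratio of scaled counts, replicate 1 over replicate 2, for each of the 38 genes with its 95% counting interval (lines). Filled circles passed the exact binomial test and open circles did not. Receptor and junction genes of the endothelium lie mostly left of 0, and Slco1a4, Mfsd2a, Abcb1a and Ly6c1 lie right of it.

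The endothelial receptors spanned 4.48 to 12.6 TPM. Flt1, a high-affinity VEGF receptor that limits VEGF signalling (chromosome 5, 147561604 to 147726011, mm10), had 11.9 TPM in replicate 1 and 11.7 TPM in replicate 2, from 1330 and 1415 counts. Kdr, the main signalling receptor for VEGF on the same chromosome, had 8.26 TPM in replicate 1 and 9.48 TPM in replicate 2. Flt1 did not pass the test between the libraries (log2 ratio 0.05, interval -0.06 to 0.16), and Kdr was lower in replicate 1 (-0.17, adjusted p = 0.032 by the binomial test). Per length, Flt1 lay above Kdr by 0.53 in replicate 1 and 0.30 in replicate 2 on the log2 scale. That mean of 0.42 fell short of the 0.5 set for calling a pair of genes different.

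Tek, the angiopoietin receptor (chromosome 4, 94739289 to 94874976), had 3.70 TPM in replicate 1 and 5.26 TPM in replicate 2, from 328 and 508 counts. Tie1, its co-receptor, had 4.58 TPM and 5.89 TPM. Both receptors were thus lower in replicate 1, Tek with a log2 ratio of -0.49 (adjusted p = 1.8e-05) and Tie1 with -0.33 (adjusted p = 0.0072, binomial test). Tie1 and Tek were not called different in level (mean log2 ratio 0.24 ± 0.1, SD, n = 2). Eng, an accessory receptor for TGF-beta family ligands, had 12.1 TPM in replicate 1 and 13.1 TPM in replicate 2 and did not pass the test (-0.13, interval -0.27 to 0.02). Thus 3 of the 5 receptor genes were higher in replicate 2 and 0 in replicate 1.

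Flt1 is also known for a soluble form, which keeps the VEGF-binding domains and lacks the membrane anchor and the kinase. In GENCODE M21 the full-length receptor is Flt1-202, with 1333 coding codons, and the short form is Flt1-203, with 688. The 2 share 1972 coding bases. Flt1-203 then reads on for 92 coding bases into what is intron for Flt1-202, and Flt1-202 continues in its next exons. Flt1-202 has 2027 coding bases after the split, and Flt1-203 is 6292 bases long in all. Reads beyond the stretches shown thus also tell the forms apart. The stretches at the split are shown because the forms part there. Both run 5′ to 3′ on the minus strand of chromosome 5 (mm10), the first within chr5:147639133-147639254 and the second within chr5:147634432-147639254. Capitals mark the 92 bases after the split.
Flt1-203: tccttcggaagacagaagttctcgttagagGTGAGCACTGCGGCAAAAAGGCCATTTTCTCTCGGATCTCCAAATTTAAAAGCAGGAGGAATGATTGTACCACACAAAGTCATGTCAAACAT
Flt1-202: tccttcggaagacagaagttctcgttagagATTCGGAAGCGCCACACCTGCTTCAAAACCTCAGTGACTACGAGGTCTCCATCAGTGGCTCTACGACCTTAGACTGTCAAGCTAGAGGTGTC

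Flt1-202 held 40.9% of the Flt1 TPM in replicate 1 and 43.2% in replicate 2. Flt1-203 held 37.7% and 37.3%. Of the counts assigned to this pair of transcripts, the soluble form took 45.7% in replicate 1 and 44.1% in replicate 2. Both libraries thus gave it a little under the full-length form. Unspliced Flt1 RNA would also give reads in the part of Flt1-203 that is intron for Flt1-202. Its share of these counts was not tested. The table in kallisto layout put Flt1-203 at a mean of 43% and Flt1-202 at 48.6%, the same order. A noncoding transcript, Flt1-201, held a further 18.5% and 17.6%, but 4.52% on average in the kallisto layout. The noncoding share thus depended on the quantification.

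Vegfa (chromosome 17, 46016993 to 46032369), the ligand of both receptors, had 40.4 TPM in replicate 1 and 34.4 TPM in replicate 2, from 1532 and 1448 counts. It was higher in replicate 1 (log2 ratio 0.22, adjusted p = 0.00037, binomial test) and lay above Kdr by 2.08 ± 0.3 on the log2 scale of TPM (SD, n = 2). Vegfa is spliced into forms that differ in how tightly they bind the extracellular matrix. Vegfa-202 (368 codons) holds an exon of 132 bases that Vegfa-201 (146 codons) lacks, at chr17:46020991-46021122 on the minus strand. The exon is only part of the difference in codons between these transcripts, since Vegfa-211 also lacks it and has 324 codons. That exon encodes most of the heparin-binding domain, which the longer VEGF164 form has and the freely diffusing VEGF120 form does not. Both coding ends are shown 5′ to 3′ (minus strand, within chr17:46018861-46024094), with the exon in capitals.
Vegfa-202: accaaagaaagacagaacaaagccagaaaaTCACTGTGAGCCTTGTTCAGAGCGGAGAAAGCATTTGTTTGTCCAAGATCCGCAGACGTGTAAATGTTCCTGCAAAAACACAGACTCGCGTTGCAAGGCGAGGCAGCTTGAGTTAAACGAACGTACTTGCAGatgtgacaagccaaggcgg
Vegfa-201: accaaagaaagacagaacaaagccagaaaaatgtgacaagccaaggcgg

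Vegfa-202 held 42.05% of the gene's TPM in replicate 1 and 46.6% in replicate 2, and Vegfa-201 held 5.78% and 4.90%. The form with the exon thus had 7.28 times the share of the form without it in replicate 1 and 9.51 times in replicate 2. The kallisto layout gave these transcripts means of 41.2% and 3.90%, but it also gave Vegfa-211, which lacks the exon too, 11.8% in replicate 1 and 13.1% in replicate 2, against 0% in the other layout. Over all 8 coding transcripts, forms with the exon had 7.70 and 9.51 times the share of forms without it in the RSEM layout and 2.40 and 2.59 times in the kallisto layout. The forms with the exon thus held more in each layout, by a margin that depended on the quantification. Transcripts annotated as retained introns took 49.7% of the Vegfa TPM in replicate 1 and 48.5% in replicate 2, led by Vegfa-209 at 23.8% and 23.4%. In counts Vegfa-209 had 70.6 and 62.9 while Vegfa-202 had 1150 and 1156, because Vegfa-209 is short (463 bases against 3451) and TPM divides by length. Both the Vegfa level and its ratio to Kdr include these retained-intron transcripts.

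Pdgfb, the ligand that recruits pericytes, had 20.2 TPM in replicate 1 and 20.99 TPM in replicate 2, which did not pass the test (log2 ratio -0.08, interval -0.20 to 0.04). Its receptor Pdgfrb had 8.28 TPM and 9.81 TPM and was lower in replicate 1 (-0.20, adjusted p = 0.015, binomial test). Receptor over ligand stood at -1.28 in replicate 1 and -1.10 in replicate 2 on the log2 scale of TPM, so Pdgfrb was called lower than Pdgfb, by a fold of 2.28.

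Junction and adhesion genes of the endothelium had means between 3.27 and 52.2 TPM. Cldn5, the claudin that seals brain endothelium (chromosome 16, 18776847 to 18778262), had 28.7 TPM in replicate 1 and 39.4 TPM in replicate 2, from 763 and 1115 counts. It was lower in replicate 1, with a log2 ratio of -0.41 (adjusted p = 3.4e-08, binomial test), or 0.754-fold. Cdh5, the cadherin of endothelial adherens junctions, had 5.18 TPM in replicate 1 and 6.81 TPM in replicate 2 (-0.35, adjusted p = 0.0017). Pecam1, an adhesion receptor between endothelial cells, had 7.29 TPM and 9.00 TPM (-0.32, adjusted p = 0.0044). All of these were lower in replicate 1.

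Emcn, a sialomucin of capillary and venous endothelium, had 2.45 TPM in replicate 1 and 4.09 TPM in replicate 2. At 73 and 105 counts it did not pass (-0.38, interval -0.84 to 0.06). Ocln, a transmembrane tight junction protein, had 4.97 TPM and 6.29 TPM and did not pass either (-0.15, interval -0.38 to 0.07). Esam, an adhesion molecule of endothelial tight junctions, had 11.3 TPM and 11.7 TPM (0.02, interval -0.19 to 0.23). Tjp1, the scaffold protein ZO-1, which neurons, glia and epithelia also make, was the junction gene higher in replicate 1, with a log2 ratio of 0.12 (adjusted p = 0.0015, binomial test). Of the 7 junction genes, 1 was thus higher in replicate 1 and 3 in replicate 2. Against Ocln, the levels of Cldn5 and Tjp1 were 6.01-fold and 9.34-fold, both pairs called different. The mean log2 ratio of Tjp1 to Ocln was 3.22, but 2.73 in the kallisto layout.

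Of the 3 transport genes, 2 were higher in replicate 1 and 0 in replicate 2. Their difference from the junction genes as a group was not tested. Mfsd2a, the lipid transporter that holds back vesicle traffic across brain endothelium (chromosome 4, 122946850 to 122961188), had 36.1 TPM in replicate 1 and 30.1 TPM in replicate 2, from 1413 and 1231 counts. Slco1a4, an organic anion transporter (chromosome 6, 141805440 to 141856199), had 18.6 TPM in replicate 1 and 13.6 TPM in replicate 2. Both were higher in replicate 1, Mfsd2a with a log2 ratio of 0.34 (adjusted p = 4.8e-08) and Slco1a4 with 0.33 (adjusted p = 6.2e-05, binomial test). Abcb1a, the P-glycoprotein drug efflux pump, had 7.27 TPM and 6.59 TPM and just missed the threshold (0.19, adjusted p = 0.056). Its adjusted p was 0.047 with genes under a mean count of 50 left out, 0.37 in the counts of the kallisto layout and 0.44 with spike-in scaling. Against Abcb1a, the level of Mfsd2a was 4.76-fold and that of Slco1a4 2.30-fold.

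The remaining endothelial genes differed among themselves. Ly6c1, a surface protein of brain endothelium (chromosome 15, 75044018 to 75048830), had 27.1 TPM in replicate 1 and 19.4 TPM in replicate 2, from 391 and 289 counts. It was higher in replicate 1 by 0.57 on the log2 scale (adjusted p = 4.3e-06, binomial test). Ly6c1 belongs to a family of near-identical genes. The authors' posterior SD of its count was 0.53% and 0.68%, so little of its total was uncertain in their model, though the kallisto layout gave the lead to Ly6c1-202 and the gene table's layout to Ly6c1-201. Itm2a, a membrane protein enriched in endothelium, had 21.6 TPM and 24.9 TPM and did not pass (-0.16, adjusted p = 0.11). Egfl7, a secreted endothelial factor that guides vessel tube formation, had 35.3 TPM in replicate 1 and 33.8 TPM in replicate 2 and did not pass either (0.18, adjusted p = 0.12).

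Egfl7 (chromosome 2, 26580014 to 26593120) is the host gene of miR-126, an endothelial microRNA. The hairpin of Mir126a, chr2:26591357-26591429 on the plus strand, lies within Egfl7-206, a transcript of 4 exons annotated as a retained intron, where a match of the RefSeq hairpin (GRCm38.p6) placed it from base 783. The mature product, chr2:26591402-26591423, is given 5′ to 3′ with its seed (bases 2 to 8) in capitals.
mmu-miR-126a-3p: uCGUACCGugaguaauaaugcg

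Egfl7-206 held 17.7% of the Egfl7 TPM in replicate 1 and 10.1% in replicate 2, from 112 and 65.4 counts, and a mean of 12.8% in the kallisto layout. The leading coding transcript, Egfl7-202 (278 codons), held 20.4% and 21.2%. All retained-intron transcripts of Egfl7 together held 47.6% in replicate 1 and 35.7% in replicate 2. The annotated genes Mir126a and Mir126b were listed at 0 counts in both libraries. The protocol in the labels is for total RNA without a selection for small RNA, so mature miRNA was not measured.

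**Figure D3:**
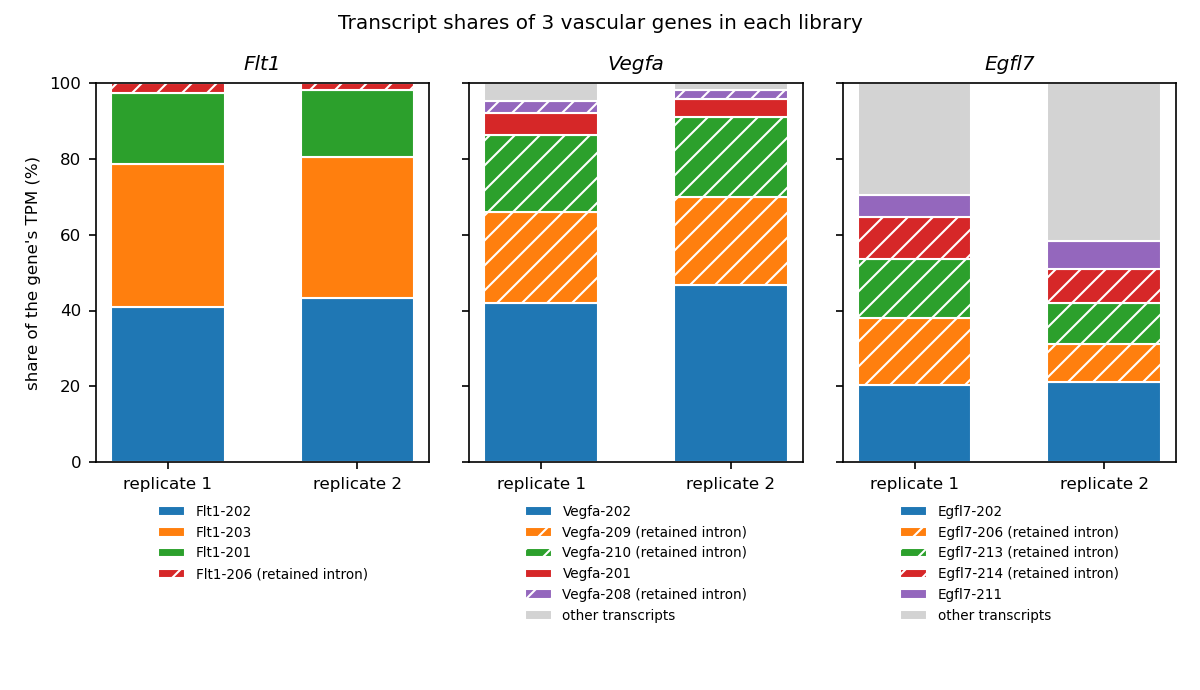
Share of the gene's TPM (%) in the transcripts of Flt1, Vegfa and Egfl7 with the highest mean shares, in replicate 1 (left bar) and replicate 2 (right bar); hatching marks retained introns. The shares of Flt1-202 and Flt1-203 lie close together in both libraries, and hatched transcripts take about as much of Vegfa as Vegfa-202 does.

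Pericyte genes had means between 1.58 and 44.9 TPM. Rgs5, a regulator of G protein signalling that marks brain pericytes (chromosome 1, 169655501 to 169695813), was the best measured at 3434 and 3926 counts. It did not pass the test (log2 ratio -0.05, interval -0.12 to 0.01). Vtn, the matrix protein vitronectin made by pericytes, had 27.5 TPM in replicate 1 and 28.3 TPM in replicate 2 (-0.04, interval -0.17 to 0.10). Rgs5 lay above Pdgfrb by 2.32 ± 0.13 on the log2 scale of TPM (SD, n = 2), the same in direction in both libraries.

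Notch3, the receptor through which mural cells receive Notch signals, had 6.40 TPM in replicate 1 and 7.34 TPM in replicate 2 (-0.15, adjusted p = 0.061). Scaled by library totals, by median-of-ratios size factors or by spike-ins it passed, with adjusted p of 0.034, 0.029 and 0.00014. Anpep, the peptidase CD13, had 1.94 TPM and 1.85 TPM. Higd1b, a mitochondrial protein of pericytes, had 2.74 TPM and 2.81 TPM from 28 and 31 counts, and its interval of -0.80 to 0.78 spans more than a 1.5-fold difference in either direction. Anpep and Higd1b did not pass the test.

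Abcc9 and Kcnj8 encode the SUR2 and Kir6.1 subunits of the pericyte's ATP-sensitive potassium channel and lie next to each other on chromosome 6 (142587862 to 142702315 and 142564837 to 142571614). Abcc9 had 3.39 TPM in replicate 1 and 3.23 TPM in replicate 2, from 448 and 469 counts. Kcnj8 had 1.18 TPM in replicate 1 and 1.98 TPM in replicate 2, from 53 and 94 counts. Abcc9 did not pass (0.07, interval -0.12 to 0.26), and Kcnj8 was lower in replicate 1 (-0.68, interval -1.20 to -0.19, adjusted p = 0.026, binomial test). Their ratio was 1.52 in replicate 1 and 0.71 in replicate 2 on the log2 scale of TPM, so the pair was not called different (mean 1.11 ± 0.58, SD, n = 2).

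Of the 3 contractile genes of smooth muscle, 0 passed the test in either direction. Acta2, smooth muscle actin, had 6.86 TPM in replicate 1 and 8.18 TPM in replicate 2, from 217 and 238 counts (log2 ratio 0.01, interval -0.27 to 0.28). Acta2-202, of 826 bases against 2035 for Acta2-201, held 30.55% of the Acta2 TPM in replicate 1 and 48.1% in replicate 2. The TPM difference of Acta2 thus depends on how its reads were divided between transcripts. Myh11, smooth muscle myosin heavy chain, had 1.90 TPM and 1.82 TPM (0.16, interval -0.10 to 0.42). Acta2 was called above Myh11, by a fold of 4.03. Tagln, the actin-binding protein SM22, had 76 and 86 counts (-0.04, interval -0.50 to 0.42), but 5.33 TPM in replicate 1 and 3.39 TPM in replicate 2. The tables assigned 64.4% of the Tagln TPM in replicate 1 and 25.8% in replicate 2 to Tagln-202, which is 369 bases long against 1595 for Tagln-201. The kallisto layout gave Tagln-202 0% and Tagln-201 95.4% on average, so the TPM difference of Tagln rests on how its reads were divided between transcripts. The mural median takes its value from Tagln.

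Among the fibroblast genes, Dcn and Slc6a20a moved most between the libraries, in opposite directions. Dcn, the collagen-binding proteoglycan decorin (chromosome 10, 97479609 to 97518143), had 16.1 TPM in replicate 1 and 25.1 TPM in replicate 2, from 543 and 886 counts. Slc6a20a, an imino acid transporter of meningeal fibroblasts (chromosome 9, 123634770 to 123678885), had 6.48 TPM in replicate 1 and 4.21 TPM in replicate 2, from 345 and 240 counts. Dcn was thus lower in replicate 1 (log2 ratio -0.57, interval -0.72 to -0.41, adjusted p = 1.1e-11, binomial test) and Slc6a20a higher (0.66, interval 0.42 to 0.91, adjusted p = 8.1e-07).

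Col1a1 and Col1a2, the 2 chains of type I collagen, had nearly equal levels. Col1a1 had 16.7 TPM in replicate 1 and 15.4 TPM in replicate 2, and Col1a2 had 15.1 TPM and 13.7 TPM. Their log2 ratio was 0.15 and 0.17. Both passed the test as higher in replicate 1 by small ratios of 0.14 and 0.15 (adjusted p = 0.014 and 0.027, binomial test). Neither passed in the counts of the kallisto layout, with adjusted p of 0.081 and 0.14, and the TPM of Col1a2 there was 24.5 in replicate 1 and 25.5 in replicate 2. Col3a1, type III collagen, had 11.1 TPM in replicate 1 and 13.1 TPM in replicate 2 and did not pass (-0.10, interval -0.22 to 0.02).

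Lum, the proteoglycan lumican, had 1.67 TPM in replicate 1 and 1.76 TPM in replicate 2, from 79 and 89 counts (-0.03, interval -0.49 to 0.42). Ogn, with 31 and 26 counts, had an interval of -0.41 to 1.20. These 3 proteoglycans differed widely in level. Dcn was 11.7-fold over Lum and 36.5-fold over Ogn per length, both pairs called different. Cldn5 lay above Dcn by 0.74 ± 0.13 on the log2 scale (SD, n = 2), but was not called different from Rgs5 (-0.42 ± 0.28). Of the 20 gene pairs set side by side, 12 were called different.

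Markers of other cell types were compared between the replicates in the same way. Their counts stand beside 10.2% of all genes tested as higher in replicate 1 and 12.5% as higher in replicate 2. All 8 markers of myelinating oligodendrocytes were higher in replicate 1 (median log2 ratio 1.12), and their summed levels were 1770 TPM in replicate 1 and 943 TPM in replicate 2. All 5 red blood cell genes were higher in replicate 1 (median 0.51, summed levels 732 and 561 TPM). Of the 6 choroid plexus markers tested, 4 were higher in replicate 1 (median 0.84, summed levels 93.2 and 50.2 TPM), among them Ttr, transthyretin, at 85.9 TPM and 45.8 TPM. Of the 7 astrocyte markers, 2 were higher in replicate 1 and 3 in replicate 2 (median 0.01). Among those 3 was Aqp4, the water channel of astrocyte endfeet on vessels. Aqp4 had 61.0 TPM in replicate 1 and 81.5 TPM in replicate 2 (-0.40, adjusted p = 1.6e-43, binomial test). None of the 10 lists of other cell types had a gene at 0 counts in both libraries. The part of these cells in the differences of the vascular and fibroblast genes was not tested. Of the markers of excitatory neurons 0 of 5 were higher in replicate 1 and 3 in replicate 2 (median -0.07), and interneuron markers had 0 and 3 of 5 (median -0.08). Of the interneuron markers, Npy, neuropeptide Y, had 32.4 TPM in replicate 1 and 52.9 TPM in replicate 2 (-0.66, adjusted p = 2.9e-09), and Sst, somatostatin, had 138.4 TPM and 203.6 TPM (-0.51, adjusted p = 5.1e-29). Microglia had 0 and 3 of 6 (median -0.13), oligodendrocyte precursors 0 and 1 of 4, border macrophages 1 and 0 of the 3 tested, and ependymal cells 0 and 0 of the 3 tested.

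**Figure D4:**
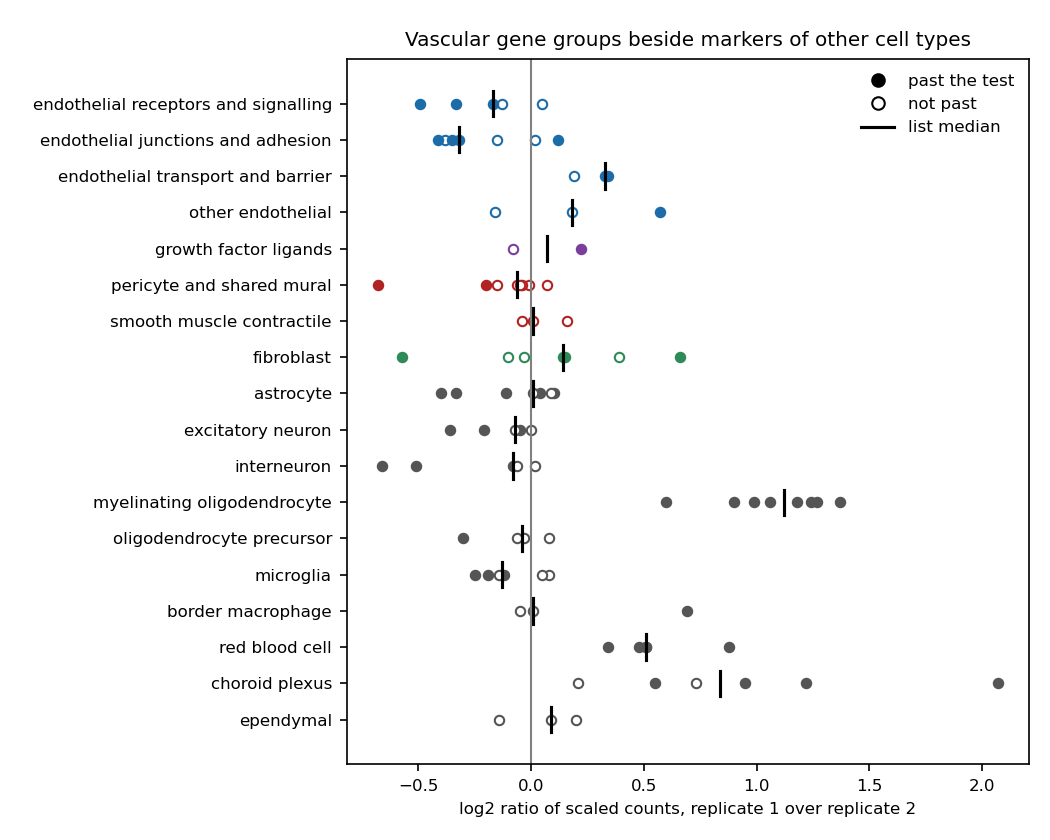
Log2 ratio of scaled counts, replicate 1 over replicate 2, of each gene (circles, filled where past the exact binomial test) in the groups of vascular and fibroblast genes (coloured) and in marker lists of other cell types (grey), with the list median as a bar. Markers of myelinating oligodendrocytes, red blood cells and choroid plexus lie right of 0.

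Other genes of the same pathways were taken from 13 lists of 140 distinct genes, of which 122 were detected and 139 tested. Of the 139, 15 were higher in replicate 1, beside 10.2% of all genes tested, and 25 in replicate 2, beside 12.5%. The counts given for each list below stand beside the same shares of all genes. Barrier transporters had a median level of 34.5 TPM. Among their 11 genes 3 were higher in replicate 1 and 4 in replicate 2. Slc2a1, the glucose transporter GLUT1, had 45.98 TPM in replicate 1 and 29.4 TPM in replicate 2, the largest ratio of this list (log2 ratio 0.74, adjusted p = 1.9e-58, binomial test). Slco1c1, a thyroid hormone transporter of the barrier and of astrocytes, had 30.8 TPM and 38.1 TPM and stood the other way (-0.27, adjusted p = 4.8e-07).

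Of the 11 further genes of tight and adherens junctions, 0 were higher in replicate 1 and 3 in replicate 2 (median log2 ratio -0.15). Jam2, a junctional adhesion molecule, had 10.8 TPM in replicate 1 and 14.0 TPM in replicate 2 (-0.24, adjusted p = 0.0015), and Lsr, a protein of junctions where 3 cells meet, had 3.76 TPM and 5.73 TPM (-0.49, adjusted p = 0.0082). Marveld2, tricellulin, was at 0.71 TPM and 0.64 TPM. Of the 14 genes of VEGF, angiopoietin and PDGF signalling, 3 were higher in replicate 1 and 1 in replicate 2. Angpt2, the angiopoietin that opposes Tek signalling, had 1.46 TPM in replicate 1 and 0.90 TPM in replicate 2, from 102 and 67 counts (0.74, adjusted p = 0.0078). In the kallisto layout Angpt2 had 2.29 TPM and 2.56 TPM, the other direction. Angpt1, which activates Tek, had 2.00 TPM in replicate 1 and 2.10 TPM in replicate 2 (-0.05, adjusted p = 0.88). Nrp1, a co-receptor for VEGF that neurons also carry, was the highest of this list at 53.1 TPM and 57.4 TPM.

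Wnt signalling sets up the barrier in brain endothelium. Among its 17 genes 4 were higher in replicate 1 and 4 in replicate 2. The ligands Wnt7a, at 7.76 TPM in replicate 1 and 10.8 TPM in replicate 2, and Wnt7b, at 14.2 TPM and 16.9 TPM, were lower in replicate 1 (adjusted p = 7.6e-06 and 0.001). Lef1, a transcription factor that acts with beta-catenin, had 3.93 TPM in replicate 1 and 2.90 TPM in replicate 2 and was higher in replicate 1 (0.45, adjusted p = 0.0077). Notch signalling had 1 gene higher in replicate 1 among 9, Notch4, an endothelial Notch receptor, and 0 higher in replicate 2. Notch4 had 514 and 392 counts (0.53, adjusted p = 7.6e-07) but 7.02 TPM and 7.08 TPM in the gene table. In the kallisto layout its levels were 9.38 TPM and 5.71 TPM, so its level per length depended on the quantification. The TGF-beta and BMP receptor list had 2 of 9 genes past the test, both lower in replicate 1, with Id3, a transcriptional target of BMP, at 38.4 TPM in replicate 1 and 50.5 TPM in replicate 2 (-0.34, adjusted p = 3.2e-06).

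Basement membrane genes had a median of 12.8 TPM and a median log2 ratio of 0.01, and 2 of 12 genes passed, both lower in replicate 1. Col4a1, the main type IV collagen chain of vessel walls, had 49.0 TPM in replicate 1 and 50.6 TPM in replicate 2. The endothelial transcription factors had a median of 2.82 TPM. Of these 11 genes Ets1 alone passed, at 6.89 TPM in replicate 1 and 8.80 TPM in replicate 2 (-0.33, adjusted p = 0.00021). Arterial genes had a median of 2.34 TPM with 1 of 8 past the test, lower in replicate 1. Venous genes had a median of 4.96 TPM, with 1 of 7 higher in replicate 1 and 3 lower. Vwf, von Willebrand factor, had 13.7 TPM in replicate 1 and 11.5 TPM in replicate 2 (0.33, adjusted p = 3.1e-07), and Slc38a5, an amino acid transporter of venous and capillary endothelium, had 4.23 TPM and 5.69 TPM (-0.62, adjusted p = 0.00095).

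Further smooth muscle genes were low, with a median of 0.73 TPM and 2 of 9 detected. Cnn1, calponin, was at 0.19 TPM in replicate 1 and 0.25 TPM in replicate 2. Synpo2, an actin-binding protein, was the member of this list past the test, at 4.32 TPM in replicate 1 and 0.92 TPM in replicate 2 (1.73, adjusted p = 2.5e-40). Of 8 further pericyte genes 0 passed in either direction. Of 16 further fibroblast and meningeal genes 2 were higher in replicate 1 and 4 in replicate 2. Col6a1, a type VI collagen chain, had 16.5 TPM in replicate 1 and 12.5 TPM in replicate 2 (0.47, adjusted p = 1.4e-13), and Serpinf1, which encodes the anti-angiogenic factor PEDF, had 8.51 TPM and 14.4 TPM (-0.43, adjusted p = 0.0034).

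In transcript structure, 34 of the 38 genes had more than 1 annotated transcript. A single transcript held more than 50% of the gene's TPM in 32, counting 4 genes with 1 transcript. The libraries shared the leading transcript for 34 genes, and the quantification layouts shared it for 31. Tjp1, whose leader held 25.6% on average, Pecam1 (41%), Higd1b (43%) and Tagln (54.9%) had different leaders in the 2 libraries. Tjp1-205, the leader in replicate 2, is 551 bases long and had 136 counts there, against 1886 for Tjp1-202. Higd1b-203 led in replicate 2 with 15.5 counts, and Tagln-202 led in replicate 1 with 18.7. The kallisto layout gave Higd1b-203 and Tagln-202 a share of 0% in each library. In Pecam1, Pecam1-202 held 41.5% in replicate 1 and 16.6% in replicate 2, while Pecam1-203 held 36.3% and 45.6%. Retained-intron transcripts were annotated for 21 genes and took more than 10% of the TPM in Vegfa, Egfl7 and Tjp1. In Tjp1 this came mostly from Tjp1-204, of 385 bases, with 38.6 and 40.1 counts of the gene's 3851 and 3892. TPM divides by length, so such a short transcript holds a larger share of TPM than of counts. In the kallisto layout Vegfa and Egfl7 again had more than 10% (means 41.9% and 27.1%), whereas Tjp1 had 5.82% and Pecam1 31.7%, against 6.66% for Pecam1 in the RSEM layout.

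Annotated gene positions were also compared for genes that share a locus, without inspecting reads there. Another annotated gene overlapped 14 of the 38, on the same strand in 9. Over 108 bases, Tagln overlaps Pcsk7 on the opposite strand, which had 11.9 TPM in replicate 1 and 11.3 TPM in replicate 2. The antisense gene Gm48529 overlaps Tagln over 3627 bases. It had 45 counts in replicate 1 and 69 in replicate 2, beside 76 and 86 for Tagln. The same-strand neighbour with most counts was Slc6a20a's Gm47171, at 20 and 11 counts, followed by the annotated miRNA gene Gm47302 within Col3a1 at 17.2 and 11.03 counts. The authors' posterior SD of the count was above 0 for 6 of the 38 genes and reached 0.82% of the count, in Slc6a20a.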

How the data were processed

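Per the labels, total RNA of a layer of male hippocampus was sequenced in 2 libraries, which are stranded with reduced ribosomal RNA. Notes deposited beside the tables name mm10 and GENCODE M21. The aligner and quantifiers are not given in the sources read. The gene tables hold, per the file headers, expected counts (the authors' estimated reads, not normalised) and TPM over all entries. As a score of uncertain assignment, they hold the authors' posterior SD of each count, per the file headers. Transcript tables in the layout of RSEM give the percent of each gene's TPM that a transcript holds, and those in the layout of kallisto give estimated counts and TPM, per the file headers. Of 81881 entries, 96 ERCC spike-ins, 1 other spike-in and 26248 numbered entries were left out of gene totals. The numbered entries held 2.67e-05% and 9.40e-06% of the counts in replicates 1 and 2.

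A level is the mean ± SD of TPM (n = 2). Expected counts were rounded, library sizes scaled by TMM (edgeR 4.0.16, R 4.3.3), and genes averaging 10 counts or more entered an exact binomial test (two-sided), with Benjamini-Hochberg adjustment over all of them at 0.05. The prior count was 0.5. Clopper-Pearson 95% intervals cover counting error only, as reads are not independent molecules. The limit set by a count of 0 is 3 counts (0.103 and 0.0945 CPM in replicates 1 and 2). Calling a pair of genes different required the same sign in each library and a mean log2 ratio above 0.5 and above 2 SD. With 2 libraries no exact sign-flip p lies below 0.5, so no such test was made. DESeq2 1.42.0 gave size factors as an alternative. Python 3.11.15, numpy 2.4.6, scipy 1.17.1, pandas 2.3.3 and matplotlib 3.10.9 were used for the rest.

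The 38 genes and all lists were chosen with earlier results of these data known. All 38 genes are named. Of each other list, up to 4 genes with the highest TPM, any under a mean of 1 TPM, and up to 4 past the test with the largest log2 ratio could be named. Angpt1, Mir126a, Mir126b and the genes overlapping the 38 were added after their values were seen. Sequences come from GENCODE M21 transcripts and, for the miRNA, from RefSeq (GRCm38.p6).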

Additional observations from a re-analysis of the deposited data

How the results depend on the processing

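No paired analysis was possible because there is 1 group. With TPM recomputed without mitochondrial, spike-in and structural RNA, the medians of endothelial, mural and fibroblast genes were 21.5, 8.1 and 22.4 TPM, as the median detected gene moved by 0.89 on the log2 scale. In the kallisto layout, where it moved by 0.65, the endothelial and fibroblast medians were 17.3 and 20.7 TPM, while the mural median, at 4.75 TPM, stayed within its SD. Without one replicate they ranged over 11.6 to 11.7 TPM (endothelial), 3.39 to 5.33 TPM (mural) and 11.1 to 13.1 TPM (fibroblast), the pairs called over 14 to 16, and the genes with a transcript over 50% over 29 to 32.

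Scaling by spike-ins moved the median of all genes to -0.11, so that 15.3% of all calls were higher in replicate 1, against 45.1% under TMM. Of the 38 genes, 4 were then higher in replicate 1 and 15 in replicate 2. Tjp1 (0.02), Vegfa (0.11), Col1a1 (0.03) and Col1a2 (0.04) no longer passed, and Itm2a, Eng, Pdgfb, Rgs5, Notch3 and Col3a1 did. With library totals and size factors, Col1a2 did not pass (adjusted p = 0.05 and 0.058). With the fixed coefficient of variation, 0 and 0 of the 38 genes were called, and the split over all genes was 69.4%. No ratio of the 38 genes past the test changed sign under the alternatives run. Cldn5 over Dcn was not called at a threshold of 1. For 6 genes, fewer than 100 counts in a library limit the precision.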
